A study of Mus musculus with 12 samples.

Results

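The annexins are cytosolic proteins that bind negatively charged phospholipids, phosphatidylserine above all, when calcium rises. 8 annexin genes, Anxa1, Anxa2, Anxa3, Anxa4, Anxa5, Anxa6, Anxa7 and Anxa11, were taken by name from the 23420 genes of the count table, and all 8 had enough counts to be tested. The RNA came from bone marrow cells labelled as monocytic myeloid-derived suppressor cells (M-MDSCs), immature monocyte-like cells that restrain T cells, and was sequenced to compare the ages. There were 6 aged mice of 24 months and 6 young mice of 6 months, all untreated males of the inbred strain C57BL/6JNIA with no transgene, and 1 library was made from each mouse. The cells had been sorted from bone marrow as CD11b positive, Ly6G negative and high in Ly6C, and the labels give the tibia as the tissue.

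Each annexin has a conserved core that docks on membranes and an N-terminal tail that differs between members and holds the binding sites for partners such as S100 proteins and ALG-2. Myeloid cells are rich in annexins, which patch torn membranes, guide vesicles and granules, and in the case of annexin A1 leave the cell and act on formyl peptide receptors to damp neutrophil recruitment. Glucocorticoids are known to raise annexin A1, and annexin A2 in complex with S100A10 gathers plasminogen and its activators at the cell surface.

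Between 8737941 and 16300374 fragments were counted in the aged libraries and between 4613239 and 9079237 in the young, so that annexin genes of few counts were measured less precisely in young mice. Every young mouse had a lower number in the sequencing file names than any aged mouse, so an order of preparation that followed them cannot be told apart from age. The labelled cell type was checked against marker genes. The 9 monocyte markers were all detected and summed to 3428 to 4586 CPM (the count of a gene scaled to its library total) in aged and 4067 to 4296 in young mice, most of it from Itgam, which encodes CD11b. Ly6c2, a gene of the Ly6C antigen used in the sort, was called higher in aged mice (log2 fold change 0.54, adjusted p = 0.00265), and Itgam (-0.22, adjusted p = 0.0285) and Klf4 (-1.13, adjusted p = 0.0428, edgeR) lower, the other 6 not being called. The 8 neutrophil markers (Camp, Ltf, Ngp, Mmp8, Retnlg, Mmp9, Cxcr2 and Lcn2), which a Ly6G-negative gate is meant to leave out, summed to 87593 to 105301 CPM in aged and 67718 to 93217 in young mice, and 4 of the 8 were called higher in aged mice, where 22.4% of all genes tested were called higher and 23% lower. The monocyte receptor gene Ccr2 was at 5.02 to 61.9 CPM over the 12 libraries. The values thus go against the labelled identity in part, and M-MDSC is used here only as the name on the labels. Of the resident macrophage markers 7 of 7 tested were called higher in aged mice, with sums of 56.0 to 1021 CPM against 45.3 to 63.8. The 5 markers of dividing cells summed to 281 to 672 CPM in aged and 569 to 1169 in young mice, with 2 of 5 called lower in aged mice, against the 23% of all genes. The other 9 lists of marker genes (promyelocytes, dendritic, plasma, B, erythroid, T and NK, stromal cells, platelets, and basophils and mast cells) summed to at most 172 CPM in any library. Among them, 3 of 3 tested promyelocyte markers were called higher in aged mice (sums of 9.04 to 16.5 against 3.12 to 8.45 CPM). The stromal gene Cxcl12 was also called higher (log2 fold change 2.35), while Col1a1, the other tested stromal gene, was not called (-0.26, adjusted p = 0.481, edgeR). Xbp1, the only tested plasma cell marker, was called higher (0.31, adjusted p = 0.00885, edgeR). Clec9a, the only tested dendritic cell marker, was called lower (-2.45). Hba-a1, Hba-a2 and Cd8a had no counts. In RNA from whole sorted populations, fewer cells of a type and less RNA per cell cannot be told apart, and the part of these markers in the annexin differences was not tested.

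Per kilobase of exon, the annexin messages differed in level by about the same steps at both ages. Anxa1 was the most abundant member, with 4289 ± 412 CPM per kilobase in aged and 3095 ± 322 in young mice (SD, n = 6 each), and it stood at rank 12 of the 9742 genes tested. Anxa2 followed at rank 45 with 946 ± 107 and 687 ± 120 CPM per kilobase. Anxa11 at rank 326 and Anxa3 at rank 330 lay side by side, with 173 ± 17.5 and 169 ± 8.21 CPM per kilobase in aged and 146 ± 13.7 and 148 ± 16.4 in young mice, and did not differ beyond their spread. Anxa5 had 72.9 ± 4.12 CPM per kilobase in aged and 53.9 ± 9.01 in young mice, and Anxa7 had 52.3 ± 5.61 and 40.5 ± 2.70, with overlapping values in young but not in aged mice. Anxa6 had 9.74 ± 2.47 and 9.07 ± 1.09 CPM per kilobase, and Anxa4 was lowest with 4.22 ± 0.959 and 3.15 ± 0.569. The rest of the family was close to silent. Anxa8, Anxa10 and Anxa13 had 0 counts in all 12 libraries, where the limit that a count of 0 allows, 3 counts, stood for 0.188 to 0.642 CPM, and Anxa9 had 1 to 19 counts per library, 105 in all, too few to be tested.

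**Figure D1:**
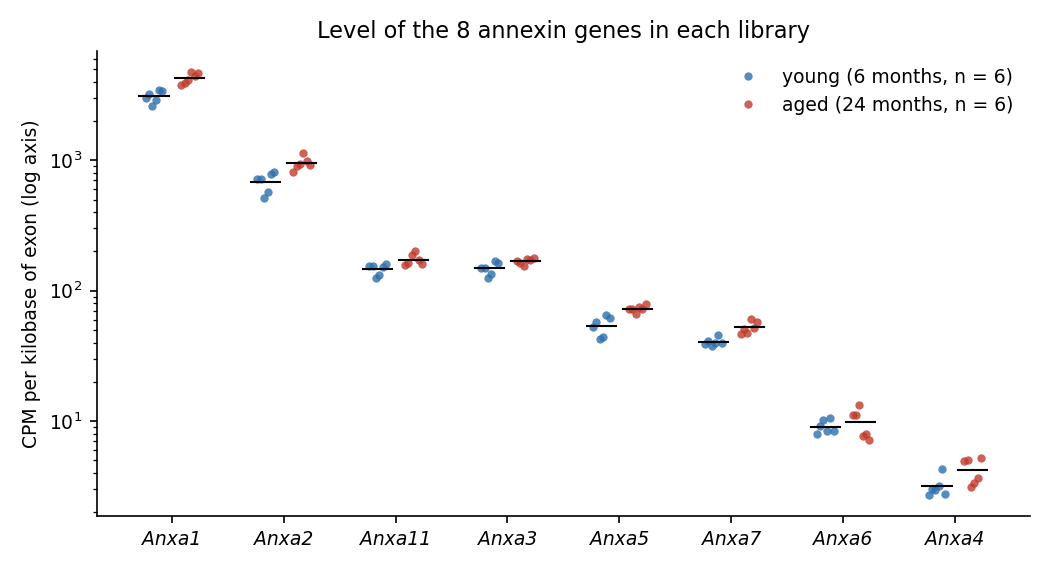
Level of each annexin gene in CPM per kilobase of exon on a log axis, with 1 point for each library (blue for young, red for aged, n = 6 each) and a bar at the group mean. Anxa1, at means of 3095 and 4289, stands above the other members in every library, and the red points of Anxa1, Anxa2, Anxa5 and Anxa7 all lie above the blue points of the same gene.

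Summed over the 8 members, the annexin level was 5717 ± 520 CPM per kilobase in aged and 4182 ± 476 in young mice (SD, n = 6 each). Anxa1 made up 75.0% ± 1.03 of that sum in aged and 74.1% ± 1.16 in young mice, and Anxa2 16.5% ± 0.870 and 16.3% ± 1.21. The make-up of the family was thus close to constant for its main members while its sum was higher with age. The share of Anxa3 was 2.97% ± 0.234 in aged and 3.54% ± 0.072 in young mice, and every aged value, 2.72% to 3.37%, lay below every young value, 3.42% to 3.61%. The share of Anxa11 was 3.03% ± 0.263 and 3.51% ± 0.167 with overlapping ranges, and that of Anxa5 was 1.28% at both ages. These shares are descriptions without a test.

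The 250 bases before the start of transcription are shown for Anxa1, Anxa2 and Anxa5, the members with the largest called rises. They were read from RefSeq promoters of build GRCm38.p6, the assembly also named mm10, in which 6 of the 8 members were found (Anxa1, Anxa2, Anxa4, Anxa5, Anxa7 and Anxa11). Capitals mark matches on either strand to 4 textbook motifs, the TATA box (TATAAA), the CCAAT box (CCAAT), the GC box (GGGCGG, or CCGCCC on the other strand) and the PU box (GAGGAA, or TTCCTC on the other strand) known from myeloid promoters, none of which overlapped here. The promoters are those at chr19:20390672-20390921 on the minus strand for Anxa1, chr9:69453433-69453682 on the plus strand for Anxa2 and chr3:36475888-36476137 on the minus strand for Anxa5, each written 5′ to 3′ along the gene.
Anxa1: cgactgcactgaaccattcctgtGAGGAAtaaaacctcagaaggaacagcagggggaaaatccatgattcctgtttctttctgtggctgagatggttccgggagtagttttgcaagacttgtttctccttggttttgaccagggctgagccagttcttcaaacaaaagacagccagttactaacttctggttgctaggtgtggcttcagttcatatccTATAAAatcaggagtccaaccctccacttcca
Anxa2: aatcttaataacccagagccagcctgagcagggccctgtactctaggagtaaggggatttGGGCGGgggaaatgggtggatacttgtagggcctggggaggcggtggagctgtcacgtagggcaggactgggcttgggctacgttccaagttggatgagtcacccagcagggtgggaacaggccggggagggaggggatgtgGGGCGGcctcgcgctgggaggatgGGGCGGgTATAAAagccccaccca
Anxa5: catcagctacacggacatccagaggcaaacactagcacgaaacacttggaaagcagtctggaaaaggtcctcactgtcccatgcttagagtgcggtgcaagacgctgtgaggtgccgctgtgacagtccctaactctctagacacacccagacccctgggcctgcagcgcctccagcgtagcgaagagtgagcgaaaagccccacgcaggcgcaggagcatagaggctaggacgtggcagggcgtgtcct

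The Anxa1 window held 1 TATAAA, whose first base lay 32 bases before the start, and 1 GAGGAA. That of Anxa2 held 1 TATAAA 17 bases before the start and 3 GGGCGG, and that of Anxa5 held none of the 4 motifs. Across 32851 mouse promoters of this length TATAAA was found in 12.4%, CCAAT in 33.8%, GGGCGG in 32.7% and GAGGAA in 23.3%. GC content was 46% for Anxa1, 62.4% for Anxa2 and 58.8% for Anxa5 against a median of 52.4% over all promoters. No motif of the 4 was found in all 3 windows, and TATAAA was found in those of Anxa1 and Anxa2. A match of letters is a description and does not show that a factor binds.

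Counts of the 9742 genes tested were compared between the ages with edgeR's quasi-likelihood test, with Benjamini-Hochberg adjustment over all of them, and a gene was called where the adjusted p was under 0.05. Of the 8 annexins, 6 were called higher in aged mice (Anxa1, Anxa2, Anxa3, Anxa5, Anxa7 and Anxa11), where 22.4% of all genes tested were called higher and 23% lower. Anxa4 and Anxa6 were not called. In 4 of the 8 members (Anxa1, Anxa2, Anxa5 and Anxa7) every aged value lay above every young value, against 9.68% of all genes tested. The median log2 fold change of the 8 was 0.39 and that of all genes tested 0.01. All 8 fitted differences were positive, from 0.09 to 0.47 on the log2 scale, so each was well under a doubling.

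Fold changes fell with exon length across all genes (Spearman's rho -0.483, across genes, which are not independent replicates), and 7 of the 8 annexins are shorter than the median tested gene of 2890 bases, from 1374 bases for Anxa2 to 2661 for Anxa6, with Anxa7 at 2965. After each library was corrected for its dependence on exon length, 3 members were called higher, where 18.4% of all genes were, namely Anxa1 (log2 fold change 0.24, adjusted p = 0.0329), Anxa5 (0.28, adjusted p = 0.0212) and Anxa7 (0.38, adjusted p = 0.00173, all edgeR). Mice young 5 and young 6, which had the lowest levels of Anxa1, Anxa2, Anxa3, Anxa5 and Anxa11 of all 12, also had the highest Mki67, a gene of dividing cells, with 673 and 597 CPM against 229 to 318 in the other young mice, and the lowest neutrophil marker sums, 67718 and 72070 CPM. Left out together, a choice made after seeing the data, they left 4 members called higher, where 14.1% of all genes were, Anxa1, Anxa2, Anxa5 and Anxa7, while Anxa3 (0.08, adjusted p = 0.320) and Anxa11 (0.14, adjusted p = 0.153, edgeR) were not.

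**Figure D2:**
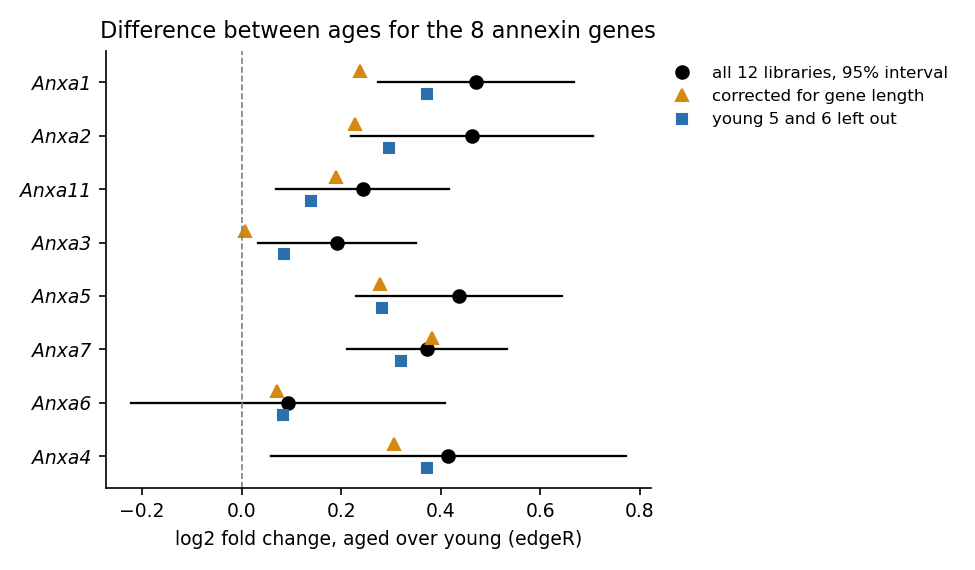
Log2 fold change of each annexin, aged over young, from edgeR with all 12 libraries (black, with its 95% interval), after the correction for gene length (orange triangles) and without mice young 5 and 6 (blue squares). The black intervals of all members but Anxa6 lie above 0, and the orange triangle of Anxa3 falls to 0.01 while that of Anxa7 stays at 0.38.

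Anxa1 lies on chromosome 19 of mm10 (20373434 to 20390671, minus strand, 13 exons, 1395 bases of exon) and encodes the annexin that acts on formyl peptide receptors. It was measured in 20912 to 104441 fragments per library, so counting error was negligible. In aged mice it ranged from 5236 CPM, over a median of 5992, to 6650, and in young mice from 3620, over 4349, to 4828. No aged mouse overlapped a young one. The log2 fold change was 0.47 (standard error 0.093, 95% interval 0.27 to 0.67, adjusted p = 0.00107, edgeR), a level 1.39 times higher, and Anxa1 was called in all 25 alternative settings. Mouse aged 5 was highest, and aged 1, whose macrophage markers summed to 1021 CPM, was lowest of the aged.

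The receptors of annexin A1 were also higher in aged mice. Fpr2, which binds annexin A1 and its N-terminal peptides, had 576 ± 65.3 CPM in aged and 362 ± 56.8 in young mice (SD, n = 6 each), or 0.67 on the log2 scale (adjusted p = 2.61e-04, edgeR), and its values, 509 to 677 and 274 to 405, did not overlap. Fpr1, the high-affinity receptor for bacterial formyl peptides, had 618 ± 129 and 403 ± 75.5 CPM, a log2 difference of 0.62 (adjusted p = 0.00342, edgeR). Without aged 4, 5 and 6, the aged mice lowest in the monocyte genes Ccr2, Fn1 and F13a1, a choice made after seeing the data, Fpr1 was no longer called (0.31, adjusted p = 0.113) and Fpr2 was (0.52, adjusted p = 0.00889, edgeR). The correction for gene length lowered the differences to 0.41 for Fpr2 (adjusted p = 0.00217) and 0.37 for Fpr1 (adjusted p = 0.0357, edgeR). Fpr2 shares 1041 bases at 95.7% identity with the copy Gm5966, so its level is uncertain.

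S100a11, whose product binds the tail of annexin A1, had 627 ± 84.8 CPM in aged and 449 ± 126 in young mice, or 0.48 on the log2 scale (adjusted p = 0.0253, edgeR) with overlapping values. This difference turned to -0.068 after the correction for gene length, S100a11 being short at 504 bases, and was not called without young 5 and 6 (0.23, adjusted p = 0.0798), without aged 4, 5 and 6 (0.30, adjusted p = 0.269), without aged 5 alone (0.43, adjusted p = 0.0549) or without young 6 alone (0.39, adjusted p = 0.0512, edgeR). Per kilobase, the log2 ratio of Anxa1 to S100a11 within a library was 1.79 ± 0.199 in aged and 1.84 ± 0.310 in young mice (SD, n = 6), a difference of -0.05 (exact permutation test over the 924 regroupings, two-sided, p = 0.803, also 0.803 adjusted over the 2 ratios tested). S100a11 has processed copies (Gm12854 and Gm7665, 297 bases each at 99% and 98.7% identity) from which the mapping filter may have taken fragments.

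Anxa2, on chromosome 9 (69453683 to 69491785, plus strand, 13 exons, 1374 bases of exon), encodes the plasminogen-binding annexin. Its values were 1115, 1271 and 1556 CPM (lowest, median, highest) in aged and 705, 996 and 1114 in young mice. The groups stood apart by the narrowest of margins, with aged 1 at 1115 and young 10 at 1114. The log2 fold change was 0.46 (standard error 0.114, 95% interval 0.22 to 0.71, adjusted p = 0.00448, edgeR). Anxa2 was called in 23 of 25 alternative settings, and not after the correction for gene length (0.23, adjusted p = 0.0714) or without aged 4, 5 and 6 (0.34, adjusted p = 0.0775), while it was 0.57 without aged 1, 2 and 7 (adjusted p = 0.00608, edgeR).

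S100a10, the partner in the annexin A2 heterotetramer, was nearly absent from these libraries. Aged mice had 2.67, 3.49, 0.214, 1.20, 0.851 and 2.63 CPM (aged 1, 2, 4, 5, 6 and 7) and young mice 0.585, 1.07, 1.84, 1.63, 1.62 and 1.06 (young 1, 2, 5, 6, 9 and 10), from 2 to 42 fragments per library. The aged values spread on both sides of the young ones, and the log2 fold change of 0.44 was not called (adjusted p = 0.455, edgeR). The value turned on which aged mice were kept, being 1.07 and called without aged 4, 5 and 6 (adjusted p = 0.0179) and -0.80 without aged 1, 2 and 7 (adjusted p = 0.167, edgeR). Aged 4, 5 and 6 were the aged mice lowest in S100a10 itself, so leaving out either set moved the value in a direction set beforehand. These fits therefore cannot decide on a difference with age. Per kilobase and on the log2 scale, Anxa2 exceeded S100a10 by 8.77 ± 1.46 in aged and 8.40 ± 0.727 in young mice (SD, n = 6), a difference of 0.36 (exact permutation test over the 924 regroupings, two-sided, p = 0.621, adjusted p = 0.803). That gap was widest in aged 4, at 11.1, where S100a10 rested on 2 fragments, and narrowest in aged 2, at 7.37.

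Among the aged mice S100a10 moved with S100a4 and with some monocyte genes, which is a description and no test. S100a4 had 5.89 ± 5.33 CPM in aged and 4.82 ± 1.21 in young mice (adjusted p = 0.649, edgeR). Ccr2, the chemokine receptor of classical monocytes, was 31.5, 61.9 and 52.3 CPM in aged 1, 2 and 7, where S100a10 was above 2.6 CPM, and 5.02, 23.3 and 13.2 in aged 4, 5 and 6, where it was at most 1.20. The same split of the aged mice, without overlap, was seen in 6 of the 9 monocyte markers (Ccr2, Fn1, F13a1, Ms4a6c, Klf4 and Irf8) and not in Itgam, Ly6c2 and Csf1r. Ly6c2 was highest in aged 5 and 6, at 798 and 788 CPM, and Csf1r lowest in aged 7, at 93.0 CPM. Anxa4 divided the aged mice in the same way. Anxa2 divided them in the opposite direction, with 1115, 1241 and 1262 CPM in aged 1, 2 and 7 and 1280, 1556 and 1347 in aged 4, 5 and 6. Anxa11 did so too, with 375, 391 and 382 CPM against 451, 480 and 409, as did Fpr1, Fpr2, S100a11 and S100a6. The part of these monocyte genes in the values of S100a10, Anxa4, Anxa2, Anxa11 and these other partners was not tested.

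**Figure D3:**
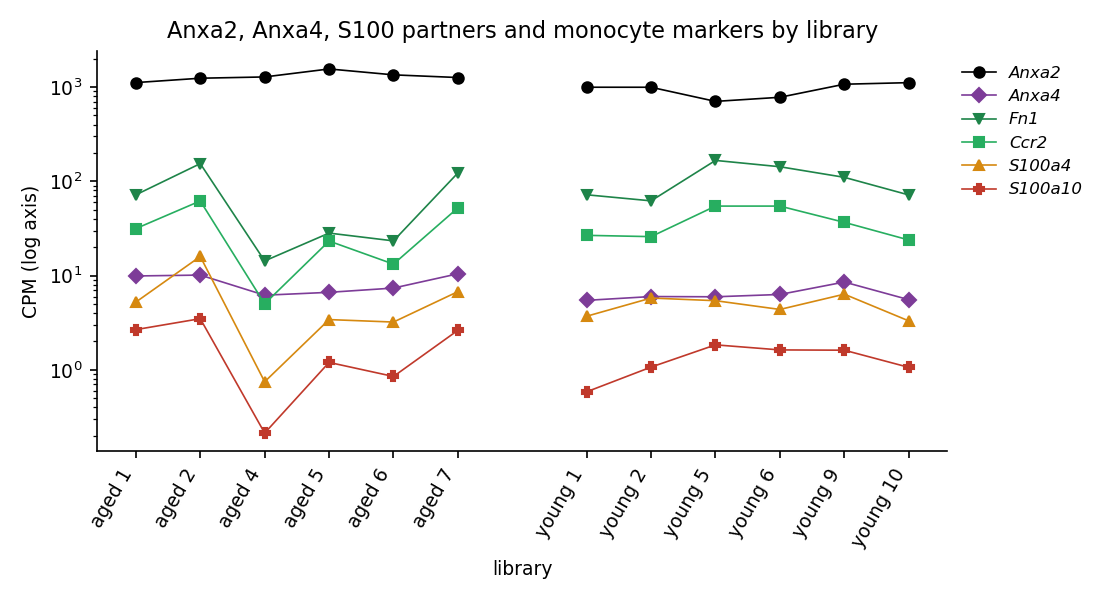
CPM on a log axis of Anxa2, Anxa4, S100a4, S100a10 and the monocyte markers Fn1 and Ccr2 in each of the 12 libraries, lines joining the libraries of an age for legibility. S100a10, S100a4, Fn1 and Ccr2 are lowest in aged 4, where S100a10 is at 0.214 CPM, while Anxa2 stays between 705 and 1556 CPM throughout.

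Ahnak, a giant scaffold that the annexin A2 and S100A10 complex holds at the membrane, was lower in aged mice, with 32.4 ± 23.6 against 84.9 ± 39.2 CPM, a log2 difference of -1.39 (adjusted p = 0.0150, edgeR) with overlapping values. This was the largest fall among the partners. It was not called after the correction for gene length (-0.55, adjusted p = 0.267), without young 5 and 6 (-0.92, adjusted p = 0.121) or without aged 4, 5 and 6 (-0.74, adjusted p = 0.124), and was -2.69 without aged 1, 2 and 7 (adjusted p = 3.41e-04, edgeR). Ahnak was at 32.4, 59.0 and 63.3 CPM in aged 1, 2 and 7 and at 10.6, 15.7 and 13.1 in aged 4, 5 and 6, the split seen in Ccr2, and it has 18543 bases of exon. Plaur, the urokinase receptor of the plasminogen system, had 455 ± 37.3 CPM in aged and 595 ± 37.1 in young mice, or -0.39 on the log2 scale (adjusted p = 6.04e-04, edgeR), and its values did not overlap. Its difference was -0.62 after the correction for gene length. Plg, the gene of plasminogen itself, had no counts.

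Anxa5, on chromosome 3 (36448924 to 36475887, minus strand, 13 exons, 1723 bases of exon), encodes the phosphatidylserine-binding protein used as a probe for dying cells. It had 114, 125 and 136 CPM (lowest, median, highest) in aged and 73.5, 95.2 and 112 in young mice, without overlap. The log2 fold change was 0.44 (standard error 0.097, 95% interval 0.23 to 0.64, adjusted p = 0.00237, edgeR), and it was called in all 25 alternative settings. The aged mice were also the more uniform, with a SD of 7.09 CPM against 15.5.

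Anxa4, on chromosome 6 (86736840 to 86793584, minus strand, 13 exons, 2003 bases of exon), an annexin of epithelial and secretory membranes, was at the low end with 28 to 167 fragments per library. Aged mice had 9.91, 10.1, 6.19, 6.64, 7.37 and 10.4 CPM (aged 1, 2, 4, 5, 6 and 7) and young mice 5.46, 5.99, 5.96, 6.31, 8.54 and 5.55 (young 1, 2, 5, 6, 9 and 10). Aged 1, 2 and 7 lay above all young mice, and aged 4, 5 and 6 lay among them. The log2 fold change of 0.42 was as large as those of called members, and its standard error of 0.167 was larger (95% interval 0.06 to 0.77, adjusted p = 0.0543, edgeR), so that Anxa4 stood just outside the threshold. It was called in 8 of 25 alternative settings, among them without young 9 (0.53, adjusted p = 0.0193), without aged 4 (0.49, adjusted p = 0.0248) and without aged 5 (0.48, adjusted p = 0.0355), and was 0.66 without aged 4, 5 and 6 (adjusted p = 0.00935, edgeR). Without aged 1, 2 and 7 it was 0.096 (adjusted p = 0.665) and without young 5 and 6 it was 0.37 (adjusted p = 0.179, edgeR), neither of which was called. Aged 4, 5 and 6 were the aged mice lowest in Anxa4, so leaving out either set of aged mice moved its value in a direction set beforehand. The call without aged 4, 5 and 6 is thus no support.

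Anxa3, on chromosome 5 (96793385 to 96845968, plus strand, 13 exons, 1597 bases of exon), encodes an annexin known from neutrophil granules. Its values were 248, 272 and 284 CPM (lowest, median, highest) in aged and 199, 238 and 267 in young mice. The ranges overlapped, and the log2 fold change of 0.19 (standard error 0.075, 95% interval 0.03 to 0.35, adjusted p = 0.0467, edgeR) was the smallest among the called members. The call was among the least stable of the family. It was kept in 8 of 25 alternative settings and in 3 of the 12 fits that left out 1 mouse, and was lost without any of aged 1, 2, 5, 6 and 7 or young 1, 2, 5 and 6, with log2 fold changes of 0.15 to 0.21 in those fits.

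Anxa6, on chromosome 11 (54978962 to 55033471, minus strand, 26 exons, 2661 bases of exon), is the member whose core is duplicated. It had 19.02, 25.4 and 35.5 CPM (lowest, median, highest) in aged and 21.1, 23.2 and 28.3 in young mice, so that the young range lay within the aged one. The log2 fold change was 0.09 (standard error 0.149, 95% interval -0.22 to 0.41, adjusted p = 0.631, edgeR), an interval that still allows a rise as large as that of Anxa7, and it was not called in any of the 25 alternatives. Aged 1, 2 and 4 (29.7, 29.4 and 35.5 CPM) lay above aged 5, 6 and 7 (20.6, 21.3 and 19.02). Rasa1, a Ras GTPase-activating protein that annexin A6 recruits to membranes, was lower in aged mice, with 28.7 ± 2.56 against 45.8 ± 7.50 CPM, without overlap (log2 fold change -0.67, adjusted p = 2.35e-04, edgeR).

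Anxa7, on chromosome 14 (20455261 to 20480133, minus strand, 13 exons, 2965 bases of exon), and Anxa11, on the same chromosome (25842155 to 25886804, plus strand, 15 exons, 2395 bases of exon), encode the annexins with long tails rich in glycine, tyrosine and proline that bind ALG-2. Anxa7 had 137, 152 and 179 CPM (lowest, median, highest) in aged and 112, 117 and 135 in young mice, without overlap. Its log2 fold change of 0.37 (standard error 0.076, 95% interval 0.21 to 0.53, adjusted p = 0.00133, edgeR) was called in all 25 alternative settings. Anxa7 was also the longest of the 8, and the only one whose difference did not shrink when gene length was corrected.

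Anxa11 had 375, 400 and 480 CPM (lowest, median, highest) in aged and 301, 366 and 381 in young mice. Only aged 1 lay within the young range, below young 10 at 381 CPM, and aged 7 exceeded that mouse by less than 1 CPM. The log2 fold change was 0.24 (standard error 0.081, 95% interval 0.07 to 0.42, adjusted p = 0.0238, edgeR). The call was lost in 7 of 25 alternative settings, among them without young 5 (0.20, adjusted p = 0.0543), young 6 (0.22, adjusted p = 0.0566) or aged 5 (0.20, adjusted p = 0.0533) and without aged 4, 5 and 6 (0.11, adjusted p = 0.344, edgeR). Anxa11 shares 657 bases at 100% identity with the pseudogene Gm2260 and 609 bases at 99.7% with Gm2274, and fragments from those stretches may have been dropped, so its level is uncertain.

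Pdcd6, which encodes ALG-2, had 60.9 ± 5.55 CPM in aged and 44.0 ± 4.14 in young mice (SD, n = 6 each), a log2 difference of 0.47 (adjusted p = 5.77e-04, edgeR), with no overlap. Sri, the gene of sorcin, which binds annexin A7, had 462 ± 44.7 and 313 ± 48.5 CPM, or 0.56 on the log2 scale (adjusted p = 6.30e-04, edgeR), also without overlap, and Pef1, the ALG-2 partner peflin, a difference of 0.40 (adjusted p = 0.0109, edgeR). Corrected for gene length, Pdcd6 was at 0.26 (adjusted p = 0.00823) and Pef1 no longer called (0.21, adjusted p = 0.124), and Pef1 was also not called without aged 4, 5 and 6 (0.26, adjusted p = 0.171) or young 5 and 6 (0.22, adjusted p = 0.0502, edgeR). The largest rise of any partner was that of S100a6, calcyclin, whose product binds annexin A11 and annexin A2. S100a6 had 1054, 1437 and 1806 CPM (lowest, median, highest) in aged and 403, 742 and 797 in young mice, or 1.13 on the log2 scale (standard error 0.185, adjusted p = 3.15e-04, edgeR). It remained at 0.68 after the correction for gene length (adjusted p = 0.00153, edgeR).

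Of the 20 partners and receptors considered, 15 were tested, 7 were called higher (S100a6, S100a11, Fpr1, Fpr2, Pdcd6, Pef1 and Sri), 4 lower (Ahnak, Rasa1, Plaur and Trpm7) and 4 not called (S100a10, S100a4, Pla2g4a and Plau), with a median log2 fold change of 0.40. Over all genes tested 22.4% were called higher and 23% lower, near the share of partners called lower. Trpm7, a channel kinase that phosphorylates annexin A1, differed by -0.40 on the log2 scale (adjusted p = 8.05e-04, edgeR) and by -0.04 after the correction for gene length.

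**Figure D4:**
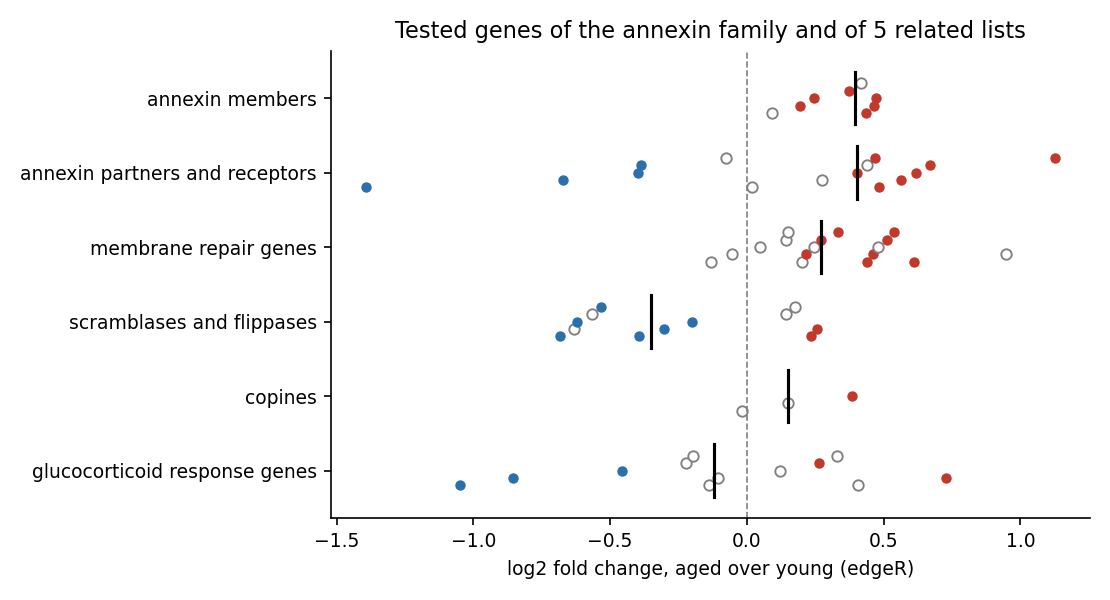
Log2 fold change, aged over young, of each tested gene of the annexin family and of 5 lists of related genes, filled red where called higher, filled blue where called lower and open where not called, with a black bar at the median of each list. The annexin bar lies at 0.39 and the partner bar at 0.40, and the scramblases and flippases lie mostly to the left with a median of -0.35.

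Genes of membrane repair, the process in which annexins seal a wound together with ESCRT proteins and calpains, were compared next. Of 21 such genes 17 were tested, 8 were called higher, where 22.4% of all genes were, and 9 were not called, with a median log2 fold change of 0.27. The largest called rises were those of Chmp1a, an ESCRT-III subunit, with 115 ± 17.1 against 75.6 ± 13.2 CPM (log2 fold change 0.61, adjusted p = 0.00120), and Smpd1, acid sphingomyelinase, with 45.8 ± 3.44 against 31.7 ± 4.75 CPM (0.54, adjusted p = 7.67e-04, edgeR). Without young 5 and 6, 5 of these genes were called higher (14.1% of all genes), and without aged 4, 5 and 6 the difference of Chmp1a was 0.40 (adjusted p = 0.0414, edgeR).

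Scramblases and flippases set how much phosphatidylserine, the ligand of annexins, faces outward. Of 15 such genes and their helpers 12 were tested, 6 were called lower (23% of all genes), 2 higher (22.4% of all genes) and 4 not called, with a median log2 fold change of -0.35. Atp8b4, a member of the flippase family of ATPases, had 271 ± 28.9 CPM in aged and 436 ± 51.1 in young mice (log2 fold change -0.68, adjusted p = 6.68e-05, edgeR), and Atp11a, a phosphatidylserine flippase, 169 ± 24.1 and 259 ± 62.9 (-0.62, adjusted p = 0.00255, edgeR), both without overlap. Tmem30a, the chaperone of flippases, rose (0.26, adjusted p = 0.00990), as did the scramblase gene Plscr1 (0.23, adjusted p = 0.0456, edgeR), a call that was lost in 16 of 25 alternative settings. The scramblase gene Ano6 was called lower (-0.20, adjusted p = 0.0358, edgeR), and Xkr8 and Plscr3 were not called. Tmem30a was not called without aged 4, 5 and 6 (0.18, adjusted p = 0.103) or without young 5 and 6 (0.17, adjusted p = 0.0707, edgeR). After the correction for gene length 1 gene of this list was called lower (Atp8b4, at -0.44, with 16.5% of all genes lower) and 2 higher, so that no excess of lower calls was left. Atp11a was then not called (-0.23, adjusted p = 0.134, edgeR), and these genes are long, with 5529 bases of exon for Atp8b4 and 7443 for Atp11a.

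Copines, the other family of soluble proteins that bind phospholipids with calcium, were mostly too low to test. Of 9 genes 3 were tested and 1, Cpne1, was called higher, where 22.4% of all genes were (284 ± 38.6 against 218 ± 22.5 CPM, log2 fold change 0.38, adjusted p = 0.00430, edgeR), without overlap. It was not called without aged 4, 5 and 6 (0.21, adjusted p = 0.0980) or with the replicate block (0.44, adjusted p = 0.0544, edgeR). That block kept only the mice numbered 1, 2, 5 and 6 of each age. After the correction for gene length 2 copines were called higher.

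Another 12 genes known to respond to glucocorticoids, as Anxa1 does, were all tested. 2 of 12 were called higher and 3 lower, shares near the 22.4% and 23% of all genes. Those higher were Ddit4 (log2 fold change 0.73, adjusted p = 0.0216) and Hsd11b1, the enzyme that regenerates active glucocorticoid (0.27, adjusted p = 0.00995, edgeR). Among those lower were Zfp36, a factor that degrades messages of cytokines, at 342 ± 41.9 against 707 ± 153 CPM (-1.05, adjusted p = 5.20e-05) and the clock gene Per1 at 54.0 ± 27.5 against 96.6 ± 35.2 (-0.86, adjusted p = 0.0305, edgeR). The Per1 call was lost in 11 of 25 alternatives, with DESeq2 (adjusted p = 0.0567), after the correction for gene length (-0.69, adjusted p = 0.0888, edgeR) and without any of aged 1, 5, 6 and 7 or young 6 and 10 among them. The median log2 fold change of the list was -0.12, over members from -1.05 to 0.73, and the part of glucocorticoids in the Anxa1 difference was not tested. Without aged 4, 5 and 6, 5 of the 12 genes were called lower, where 17.2% of all genes were. Without young 5 and 6, 0 were called higher, where 14.1% of all genes were. The calls on Ddit4 and Hsd11b1 were lost without young 5 and 6 (0.50, adjusted p = 0.139, and 0.18, adjusted p = 0.0751), and without young 5 alone Ddit4 was not called (0.62, adjusted p = 0.0529, edgeR). Ddit4 moved most without aged 4, 5 and 6, to 0.27 (adjusted p = 0.432), and was not called with limma-voom (adjusted p = 0.0809), thinning (adjusted p = 0.0549) or the correction for gene length (adjusted p = 0.0689). Hsd11b1 was at 0.042 after the correction for gene length (adjusted p = 0.629, edgeR).

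Genes that followed Anxa1 most closely were sought among 6588 tested genes of at least 10 CPM by the root mean square difference of their centred log2 profiles over the 12 libraries. Dstn, the actin-depolymerizing factor destrin, was nearest at 0.042, followed by Serpinb1a, an inhibitor of neutrophil serine proteases, at 0.0561, and Cdkn2d, an inhibitor of the kinases CDK4 and CDK6, at 0.060, where the median over all genes was 0.326. Their log2 fold changes were 0.45, 0.44 and 0.47, the last of which was 0.21 and not called after the correction for gene length (adjusted p = 0.0513, edgeR), and the mean levels of Dstn were 1038 CPM in aged and 758 in young mice. No member was called lower, all 8 differences being positive, so no profile was sought for a fall. This likeness describes 12 libraries that include the difference between ages.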

How the data were processed

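Raw fragment counts per gene in 12 libraries, 1 per mouse, were used as deposited. The authors made these counts with featureCounts 2.0.0 over the exons of an mm10 annotation, in reverse-stranded pairs with a mapping quality of at least 60, which drops fragments that map to several places, and the aligner is not given in the sources used here. Exon length was taken from the same deposited table. Genes were kept with filterByExpr, scaled with TMM and tested with edgeR 4.0.16 (R 4.3.3) across all genes, with Benjamini-Hochberg adjustment at 0.05. CPM used TMM-scaled totals, and log2 profiles a prior count of 2. Within-library ratios used a pseudocount of 0.5, added to the fragment count before division by exon length. Intervals cover 95%. Ages came from the labels, and no 2 libraries held the same counts. Young 1 and young 2 were the most alike, with a mean chi-square per gene between their counts of 1.675. The other pairs within an age had 2.635 to 39.05. How far young 1 and young 2 are independent was not tested.

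Alternatives were DESeq2 1.42.0, limma-voom (limma 3.58.1), other scalings and filters, thinning to the smallest total, a loess correction for exon length (span 0.5), a replicate block and leaving out libraries. The block used only the mice numbered 1, 2, 5 and 6 of each age. The members and lists were chosen with earlier results of these data known. Named were all members, S100a10, S100a11, S100a6, Fpr1, Fpr2 and Pdcd6, up to 2 called rises and 2 called falls per list and the 3 profiles nearest to Anxa1. Sri, Pef1, Trpm7, Plaur, S100a4, Ccr2, Fn1, F13a1, Mki67, Ly6c2, Itgam, Klf4, Csf1r, Ms4a6c, Irf8, Cxcl12, Col1a1, Xbp1, Clec9a, Ano6, Xkr8 and Plscr3 were named after their values were seen. The fits were tested on simulated counts. Ly6g and mitochondrial genes were not analysed here.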

Additional observations from a re-analysis of the deposited data

Results flagged for a closer look

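3 of 32 sets of 6 values stood out by a single library far from the other 5, where chance gives about 1 in 20 sets. Anxa4 was at 8.54 CPM in young 9, with the other young mice at 5.46 to 6.31. The log2 ratio of Anxa1 to S100a11 was 2.17 in aged 7, with the other aged mice at 1.61 to 1.81. Pdcd6 was at 50.2 CPM in aged 7, with the other aged mice at 60.5 to 65.8, and all 6 values lay above those of the young mice.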

How the results depend on the processing

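Anxa1, Anxa5 and Anxa7 were called higher in all 25 alternatives, Anxa2 in 23, Anxa11 in 18, Anxa3 and Anxa4 in 8 each and Anxa6 in none. With 1 mouse left out, 4 to 7 members were called higher, with Anxa1, Anxa2, Anxa5 and Anxa7 in all 12 such fits, and 1864 to 2321 of all genes were called higher and 1940 to 2383 lower. The correction for gene length gave 3 members and 2 copines called higher, 2 partners and 1 scramblase or flippase lower and 1 glucocorticoid gene higher, and turned S100a10 to -0.093, S100a11 to -0.068 and S100a4 to -0.35. Without aged 4, 5 and 6, 1344 of all genes, 0 scramblases or flippases, 0 copines and 1 glucocorticoid gene were called higher, and 5 glucocorticoid genes lower, and S100a10 at 1.07 and S100a4 at 0.91 (adjusted p = 0.0179 and 0.0494) were called higher. Without young 5 and 6, 1392 of all genes, 5 repair genes, 0 scramblases or flippases and 0 glucocorticoid genes were called higher. Without aged 1, 2 and 7, 1 scramblase or flippase gene (Tmem30a) was higher, S100a10 was -0.80 and S100a4 -0.94. These joint omissions were chosen after seeing the data. Aged 4, 5 and 6 were the aged mice lowest in S100a10, S100a4 and Anxa4, so for these genes the direction of the shift was set by the choice. Each list with 0 genes called higher by edgeR in these fits or with the block had 1 or 2 genes higher at an unadjusted p under 0.05. DESeq2, limma-voom and no TMM each gave 1 scramblase or flippase higher, thinning gave 1 glucocorticoid gene higher, and limma-voom turned S100a4 to -0.17. With 1 mouse left out, 6 to 7 partners, 7 to 9 repair genes, 1 to 2 scramblases or flippases and 1 to 3 glucocorticoid genes were higher, 5 to 7 scramblases or flippases and 2 to 4 glucocorticoid genes lower, and the Anxa2 to S100a10 difference ran from -0.11 (without aged 4) to 0.64, that of Anxa1 to S100a11 from -0.13 to 0.037 (0.01 without young 5, 0.037 without young 6), Anxa6 from -0.013 (without aged 4) to 0.17 and S100a4 from -0.28 (without aged 2) to 0.50. Numbers 1, 2, 5 and 6 occurred at both ages, but same-numbered mice did not deviate together (correlations -0.246 to -0.0655) and none was nearest to its own number, so they share only a number. The replicate block was fitted only to the mice numbered 1, 2, 5 and 6, so aged 4 and 7 and young 9 and 10 were left out. It gave 4 members, 1 scramblase or flippase gene (Tmem30a) and 0 copines higher, 1586 genes higher and 1860 lower. Without TMM factors calls split 37.8% higher, against 49.4%, and all 8 annexins stayed positive. The 5 draws of thinning left Anxa4 between 0.32 and 0.74. Undivided by length, shares of Anxa1 were 72.2% and 71.0%. The causes were not tested. Anxa4, S100a10 and S100a4 rested on few fragments, down to 28, 2 and 7 in a library.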
